A study of Mus musculus with 8 samples.

Results

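The genes described here are 35 heat shock and endoplasmic reticulum (ER) chaperone genes, of 17707 genes that could be matched across the tables. They were taken by name from a fixed list, which was chosen with earlier results of these data known. By role they are 14 ER chaperones and folding enzymes, 4 regulators of the unfolded protein response, 4 genes of ER-associated degradation, 10 cytosolic heat shock genes, 2 genes of the mitochondrial chaperonin and the heat shock factor gene Hsf1. They were followed in hippocampal RNA of C57BL/6 mice in 8 libraries: 2 from CRISPR knockouts of Pyk2 (KO), 2 from CRISPR mutants whose Pyk2 carries Y402F (Y402F), 2 from wild-type controls of the knockout (KO controls) and 2 from wild-type controls of the substitution line (Y402F controls). Pyk2, the product of Ptk2b, is a tyrosine kinase, and the Y402F change replaces its autophosphorylated tyrosine with phenylalanine. The labels name no treatment and no promoter or cell type that would limit either edit. The sources used here do not say how old the mice were or how many animals a library holds, so a p-value rests on the spread of 2 libraries a group and part of that spread may be technical.

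Chaperones bind unfolded or misfolded proteins and help them reach or keep their shape. When unfolded proteins build up in the ER, the unfolded protein response, set off through the membrane sensors IRE1, PERK and ATF6, raises the chaperones of the ER lumen through XBP1 and ATF6 and the stress regulators ATF4 and CHOP through PERK. In the cytosol the heat shock factor HSF1 plays the matching part for the heat shock proteins. Neurons hold much HSC70 and HSP90 without stress, since synaptic protein turnover and vesicle uncoating use them.

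The mutant tables held 5756180 to 6017219 expected counts per library; how deeply the controls were sequenced is unknown. Values are FPKM (fragments per kilobase of transcript, scaled to library size) divided by a scale factor per library, called scaled FPKM. Ptk2b was at 55.8 and 68.4 scaled FPKM in KO, 352 and 394 in Y402F, 308 and 307 in KO controls and 322 and 316 in Y402F controls, as the labels name the groups. The mutant tables hold counts of RefSeq genes and the control tables Cufflinks estimates of Ensembl genes, so in a mutant against its controls genotype and processing cannot be told apart. Of all genes 23.2% were called in the same direction in both mutants against their controls. Libraries also stood apart in 2 ways that the labels do not name. The Y-linked Ddx3y was above 1 scaled FPKM in KO replicate 2, Y402F replicate 2 and both Y402F controls and at or below 0.0692 in the other 4. The summed level of 8 choroid plexus markers was 39.8 and 53.9 in KO, 39.6 and 751 in Y402F, 49.4 and 48.2 in KO controls and 1142 and 1170 in Y402F controls. In the KO libraries and KO controls 4 of these markers, Kcnj13, Kcne2, Otx2 and Clic6, were at or below 0.423. The 5 neuron markers were present in all libraries, with Snap25 at 881 or more.

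Many ER chaperone genes carry the ER stress response element, a paired site for NF-Y and ATF6 or XBP1, near their start. The promoter windows of RefSeq (GRCm38.p6, 250 bases before to 50 after the start) covered 29 of the 35 genes; Hyou1, Manf, Hspa8, Hsp90aa1, Hsp90ab1 and Hsf1 had none in the table. The element was searched on both strands as CCAAT followed, after 9 bases of any kind, by CCACG. It was found in 37 of 27025 genes with a window (0.137%). Among them were 7 of 12 ER chaperone genes and the ER degradation gene Syvn1, and none of 7 cytosolic heat shock genes. The matches are shown because they are what these genes share in sequence; capitals mark the fixed letters, read 5′ to 3′ on the gene's strand.
Hspa5 (chr2:34772005-34772063, plus strand): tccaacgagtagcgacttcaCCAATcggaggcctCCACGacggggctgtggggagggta
Hsp90b1 (chr10:86705513-86705676, minus strand): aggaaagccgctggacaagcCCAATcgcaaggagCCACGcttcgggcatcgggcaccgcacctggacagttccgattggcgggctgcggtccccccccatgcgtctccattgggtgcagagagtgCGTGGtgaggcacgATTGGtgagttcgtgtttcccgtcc
Calr (chr8:84847055-84847113, minus strand): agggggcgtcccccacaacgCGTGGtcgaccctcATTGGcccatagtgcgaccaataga
Canx (chr11:50325780-50325838, minus strand): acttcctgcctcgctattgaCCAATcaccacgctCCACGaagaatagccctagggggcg
Pdia6 (chr12:17266471-17266529, plus strand): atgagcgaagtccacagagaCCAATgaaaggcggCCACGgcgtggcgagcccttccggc
Dnajc3 (chr14:118937807-118937865, plus strand): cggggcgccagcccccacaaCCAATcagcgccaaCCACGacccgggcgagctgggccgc
Creld2 (chr15:88819500-88819558, plus strand): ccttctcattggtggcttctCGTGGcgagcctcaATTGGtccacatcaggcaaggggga
Syvn1 (chr19:6046512-6046570, plus strand): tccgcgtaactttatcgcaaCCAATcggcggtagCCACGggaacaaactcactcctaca

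Other elements were found in fewer of these genes, again with both strands searched. The short form, ATTGG and CCACG with 1 base of any kind between them, was in Herpud1 and, 7 bases past the start, in Dnajb11, and in 0.0444% of all genes with a window. The letters TGATGCAA, a site of C/EBP and ATF4 pairs, were in Herpud1 and in 1.03% of all genes. The unfolded protein response element TGACGTGG was in none of the 29 and in 0.714% of all genes. The heat shock element, searched as GAA, TTC and GAA with 2 bases of any kind between neighbours, was in Hspd1, Hspe1 and Hsph1 and in 0.662% of all genes. Hspd1 and Hspe1 lie head to head on chromosome 1, and their match is the same stretch between the starts, read here on the strand of Hspe1 with overlapping matches on both strands.
Hspe1 (chr1:55088039-55088096, plus strand): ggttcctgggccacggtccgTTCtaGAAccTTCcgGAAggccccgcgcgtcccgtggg

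**Figure D1:**
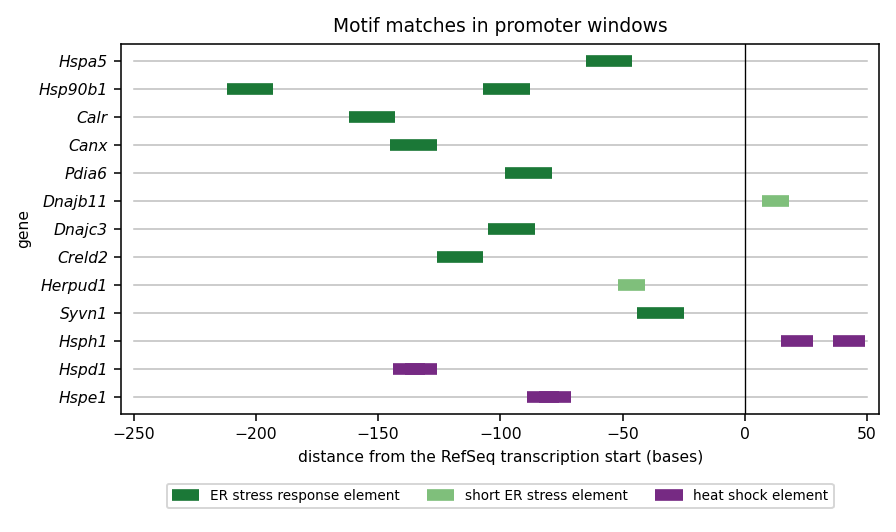
Positions of matches to the ER stress response element, its short form and the heat shock element in the promoter windows of 13 genes, as distance in bases from the RefSeq transcription start (0, vertical line). The full ER stress response element lies before the start in all 8 genes that hold it, at 2 places in Hsp90b1. The matches of Hsph1 lie past the start and are the same stretch, measured from 2 RefSeq starts.

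Levels differed among these genes by more than they differed between groups. Hspa8, which encodes the constitutive chaperone HSC70, had the highest level, 682 to 1122 scaled FPKM over the 8 libraries (mean 896). It was followed by the cytosolic HSP90 genes Hsp90ab1 (572 to 780) and Hsp90aa1 (227 to 397) and by Calr, which encodes the ER chaperone calreticulin (186 to 294). The ranges of Hspa8 and Hsp90ab1 overlapped, as did those of Hsp90aa1 and Calr, although within each of the 8 libraries the order of these 4 genes was the same. The inducible HSP70 genes were low, with Hspa1a at 3.57 to 8.37 and Hspa1b at 4.54 to 8.50. Hspb1, the small heat shock protein gene, and Bag3, a cochaperone of HSP70, lay in the same range, between 2.45 and 6.61 and between 3.16 and 5.83. Trib3, a pseudokinase gene induced by ATF4 and CHOP, rested on 1 to 3 expected counts in the mutants and was at 0.0842 to 1.32 scaled FPKM; it was the 1 gene of the 35 that did not pass the filter of a mean of 1 FPKM, which leaves 34 that could be tested. Pdia4, a protein disulfide isomerase gene, varied least, from 13.1 to 15.5, and among the genes tested the ER mannosidase-like gene Edem1 varied most, from 2.73 to 16.1.

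**Figure D2:**
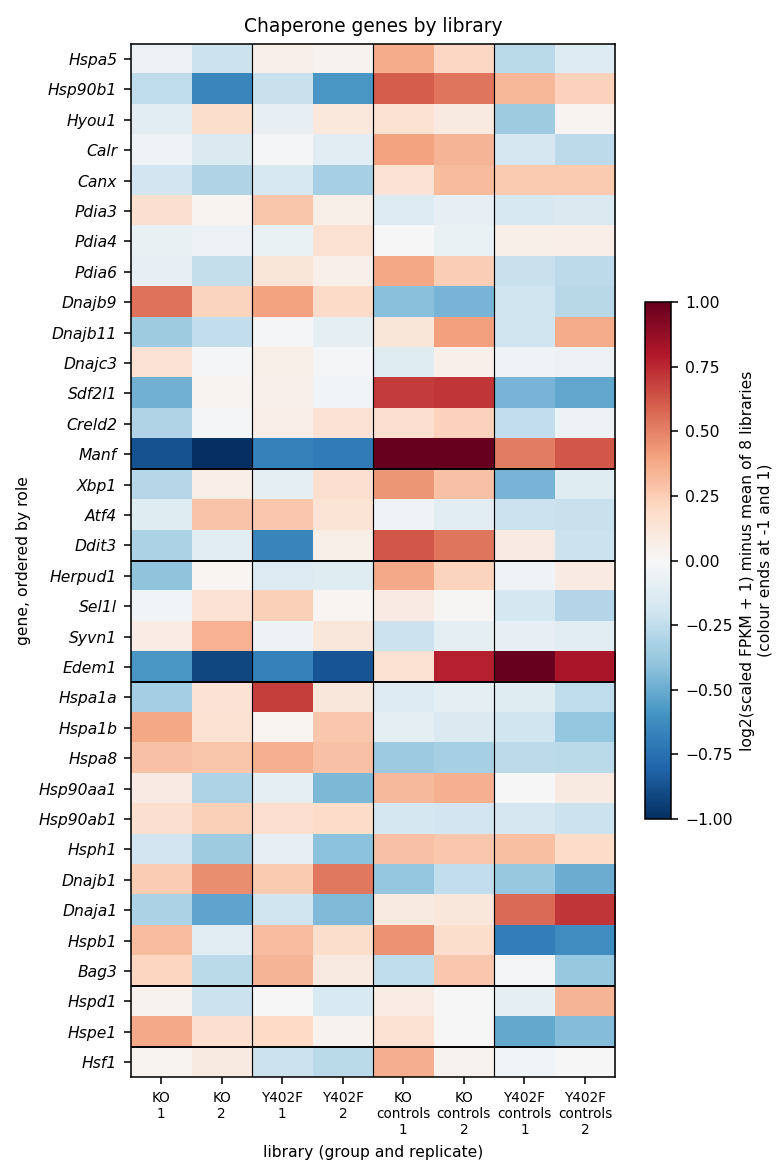
Each cell is the log2(scaled FPKM + 1) of 1 gene in 1 library minus the mean of that gene over the 8 libraries, with genes grouped by role between black lines. Manf and Edem1 are low in the 4 mutant libraries, Hspa8 and Hsp90ab1 are high there, and Calr, Sdf2l1 and Pdia6 are highest in the KO controls; the colours of a few cells are at the end of the scale.

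The mutants were compared directly because their tables were made the same way and hold counts. Between KO and Y402F no chaperone gene was called at an adjusted p under 0.05 by edgeR's quasi-likelihood test, of 34 tested, against 0.00771% of all genes. DESeq2 and limma also called 0, and 1 gene had an unadjusted p under 0.05 by edgeR, where 1.93% of all genes had one. The 34 log2 differences ran from -0.61 to 0.32 with a median of -0.04, beside -0.01 over all genes. Hspa1a had the smallest p, with 3.57 and 5.39 scaled FPKM in KO and 8.37 and 5.26 in Y402F (log2 difference -0.61, SE 0.26, edgeR adjusted p = 1.00). The groups overlapped, and 1 library, Y402F replicate 1, was high. Hspa1a and Hspa1b are 99.6% identical over 1926 aligned coding bases, and the estimated counts divide shared reads between them. Their summed expected counts were 187 and 198 in KO and 228 and 209 in Y402F, while the part of the sum given to Hspa1a was 29.5 and 43.1% in KO and 56.7 and 40.4% in Y402F. Either gene alone is therefore uncertain.

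Among ER genes in the same comparison, Manf, a secreted ER stress factor, was at 17.8 and 15.7 scaled FPKM in KO and 20.5 and 20.2 in Y402F. Pdia6, another disulfide isomerase gene, was at 32.2 and 28.7 in KO and 37.1 and 35.3 in Y402F. For both genes the KO libraries lay below the Y402F libraries, with log2 differences of -0.28 (SE 0.17) and -0.25 (SE 0.15) and an edgeR adjusted p of 1.00 each. Hsf1 was the reverse, at 15.7 and 16.4 in KO and 13.1 and 12.6 in Y402F (0.32, SE 0.18, edgeR adjusted p = 1.00). Of the 34 genes 23 had a negative difference, beside 51.3% of all genes, and so had 11 of the 14 ER chaperone genes, with a median of -0.10. The most abundant genes were close, with Hspa8 at 1075 and 1063 in KO and 1122 and 1075 in Y402F (-0.04, SE 0.09) and Hsp90ab1 at 739 and 780 in KO and 744 and 753 in Y402F (0.02, SE 0.09). A missed threshold does not show that the mutants are alike. The 1 gene called among all genes was Ptk2b (log2 difference -2.59, SE 0.13). The activity-induced genes Fos (1.35, SE 0.26, edgeR adjusted p = 0.186) and Npas4 (1.94, SE 0.32, edgeR adjusted p = 0.0960) were not called. With an SE near 0.15, changes of several SE can therefore go uncalled here. Beside these values, the summed level of 7 activity-induced genes was 193 and 260 scaled FPKM in KO and 159 and 125 in Y402F. The 4 hippocampus markers Prox1, Wfs1, Zbtb20 and Neurod6 all had a negative difference (median -0.31), with 0 called by edgeR and 0 with an unadjusted p under 0.05. The part of these genes in the chaperone levels was not tested.

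The wild-type pairs were compared within tables made the same way, to see how far the controls of the lines differ before any mutant is set against them. Genes that were not matched held 51.9 and 52.9% of the FPKM in KO controls and 61.8 and 62% in Y402F controls. The part of this in the differences was not tested. In KO controls 7 of 34 chaperone genes were higher and 1 was lower than in Y402F controls by limma, against 4.86% and 3.19% of all genes. The median log2 difference of the 34 genes was 0.19, beside -0.02 over all genes, and 8 of the 34 differences were negative, beside 52.1% of all genes. Of the 7 that rose, 5 are ER chaperone genes, and 11 of the 14 genes with that role had a positive difference (median 0.28).

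Sdf2l1, a component of the ER chaperone complex around BiP, was at 9.06 and 9.22 scaled FPKM in KO controls and 3.50 and 3.33 in Y402F controls. Its log2 difference was 1.20 (SE 0.19, limma adjusted p = 0.0161), the greatest of the 34 genes. Calr was at 294 and 282 in KO controls and 198 and 186 in Y402F controls (0.58, SE 0.08, limma adjusted p = 0.0114). The groups did not overlap for either gene, and the replicates of each lay close together. For Sdf2l1, though, the upper Cufflinks bound was 25.8% above the estimate in both KO controls and 41.1 and 41.9% above it in Y402F controls. Pdia6 was at 44.9 and 40.5 in KO controls and 29.1 and 28.3 in Y402F controls (0.56, SE 0.11, limma adjusted p = 0.0256). Manf was at 72.7 and 69.8 in KO controls and 48.0 and 51.8 in Y402F controls (0.51, SE 0.11, limma adjusted p = 0.0321). Hspa5, which encodes BiP, the main HSP70 of the ER and partner of the stress sensors, was at 79.1 and 70.4 in KO controls and 50.2 and 55.6 in Y402F controls (0.49, SE 0.11, limma adjusted p = 0.0334).

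The other ER chaperone genes did not pass. Hsp90b1 (GRP94, the HSP90 of the ER) was at 195 and 185 in KO controls and 161 and 150 in Y402F controls (0.29, SE 0.15). Canx (calnexin, the membrane-bound relative of calreticulin) was at 92.0 and 104 in KO controls and 99.8 and 99.7 in Y402F controls (-0.03, SE 0.10). Of the 8 genes with a full ER stress response element above, 3 (Hspa5, Calr and Pdia6) were among those that rose, beside 4.86% of all genes. Sdf2l1, with no match in its window, and Manf, which had no window, rose as well. A link between the element and these differences was not tested.

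Of 3 regulators of the unfolded protein response tested, limma called 0, and 2 had an unadjusted p under 0.05, beside 27.1% of all genes. Xbp1, whose spliced form drives ER chaperone genes, was at 40.3 and 36.3 scaled FPKM in KO controls and 21.0 and 26.9 in Y402F controls (0.66, SE 0.17, limma adjusted p = 0.0506); the tables do not separate the spliced form. Ddit3, which encodes CHOP, was at 27.7 and 26.0 in KO controls and 18.8 and 15.1 in Y402F controls (0.64, SE 0.23, limma adjusted p = 0.111). The control tables list a second, overlapping gene under the symbol Ddit3, at 122 and 1.02e-180 FPKM in KO controls and 0 and 440 in Y402F controls, so reads may have been divided between the entries. The 4 ER degradation genes had no call by limma, 2 of them with an unadjusted p under 0.05; Edem1 was at 6.76 and 11.0 in KO controls and 16.1 and 11.3 in Y402F controls (-0.59, SE 0.26, limma adjusted p = 0.180).

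Outside the ER, 3 genes were called between the wild-type pairs. Hspb1 (HSP27) was at 6.61 and 5.30 scaled FPKM in KO controls and 2.45 and 2.62 in Y402F controls (0.97, SE 0.20, limma adjusted p = 0.0288). Its upper Cufflinks bound was 35.3 and 39.0% above the estimate in KO controls and 59.6 and 57.3% above it in Y402F controls. Hspe1, the cochaperonin HSP10 of mitochondria, was at 78.4 and 70.4 in KO controls and 49.2 and 51.9 in Y402F controls (0.55, SE 0.11, limma adjusted p = 0.0294). Its partner Hspd1 (HSP60), divergently transcribed from the shared promoter, was at 62.9 and 59.6 in KO controls and 56.0 and 75.6 in Y402F controls (-0.09, SE 0.15, limma adjusted p = 0.757), and these libraries overlapped. Dnaja1, a J-domain cochaperone of HSC70, was the 1 gene that fell, at 64.5 and 65.8 in KO controls and 90.4 and 100 in Y402F controls (-0.54, SE 0.12, limma adjusted p = 0.0362). Hspa8 was at 682 and 696 in KO controls and 730 and 725 in Y402F controls (-0.08, SE 0.06, limma adjusted p = 0.441).

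Leaving out single libraries ended calls between the wild-type pairs, where 0 chaperone genes were called without KO control replicate 1 or Y402F control replicate 2, and 1 without KO control replicate 2 or Y402F control replicate 1. Sex pattern and choroid plexus level both follow the line in these 4 libraries and cannot be told apart from it. In the Y402F mutants, whose libraries differ in both measures, Calr was at 220 and 207 and Sdf2l1 at 5.44 and 5.09 scaled FPKM in replicates 1 and 2. In KO, whose replicates differ in Ddx3y, Calr was at 216 and 201 and Sdf2l1 at 3.46 and 5.33. The part of sex pattern and choroid plexus level in these values was not tested. The summed level of 7 activity-induced genes was 61.9 and 64.6 in KO controls and 119 and 124 in Y402F controls, and that of 5 blood genes 577 and 578 in KO controls and 302 and 316 in Y402F controls. The 5 oligodendrocyte markers summed to 4055 and 4171 in KO controls and 2531 and 2559 in Y402F controls; all 5 differences were positive (median 0.44), and Mbp (0.75) and Cnp (0.79) were called. The astrocyte marker Gfap (0.62) and the microglial marker C1qa (0.71) were called higher too, but their lists were mixed. Of the 4 astrocyte markers 2 had a negative difference (median -0.02), and so had 2 of the 5 microglial markers (median 0.11). Of the 4 hippocampus markers 2 had a negative difference (median -0.02), and Prox1 was called lower (-0.82, SE 0.13, limma adjusted p = 0.0156). Prox1 was at 8.64 and 9.28 scaled FPKM in KO controls and 17.7 and 15.4 in Y402F controls. The part of these markers in the chaperone result was not tested.

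**Figure D3:**
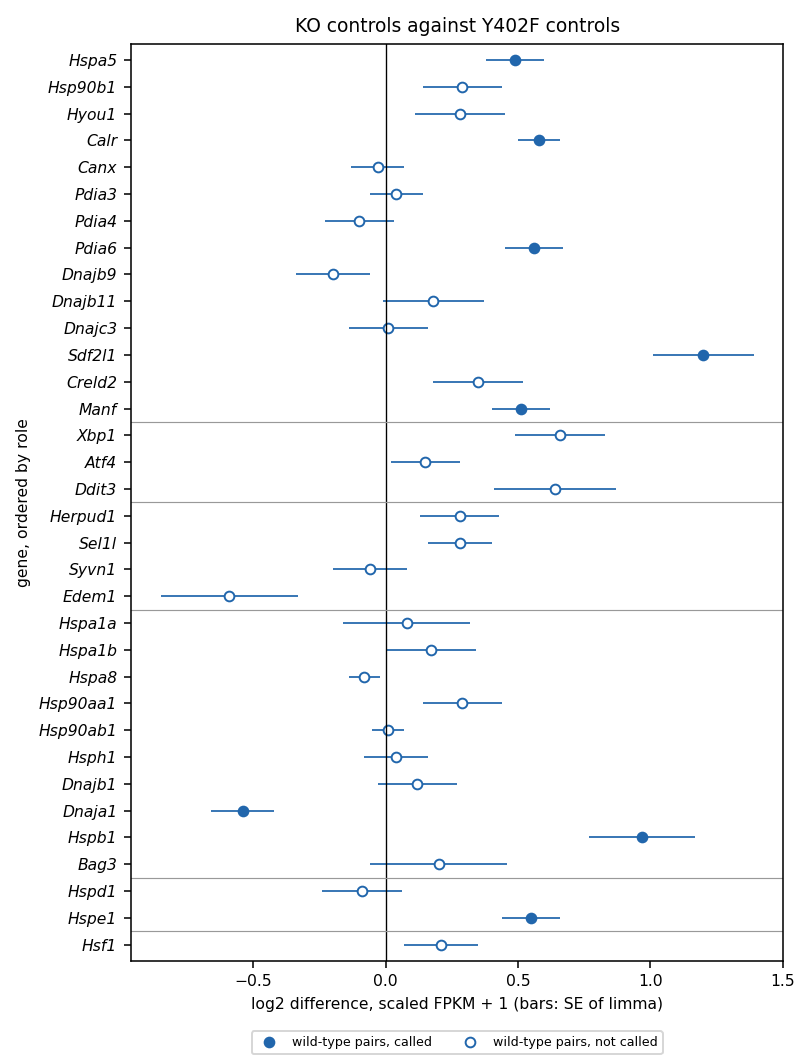
Log2 difference of KO controls minus Y402F controls for the 34 genes tested, on the log2(scaled FPKM + 1) scale, with SE bars from limma; filled points were called. The filled points are 5 ER chaperone genes, Hspb1 and Hspe1 to the right of 0 and Dnaja1 to the left.

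**Figure D4:**
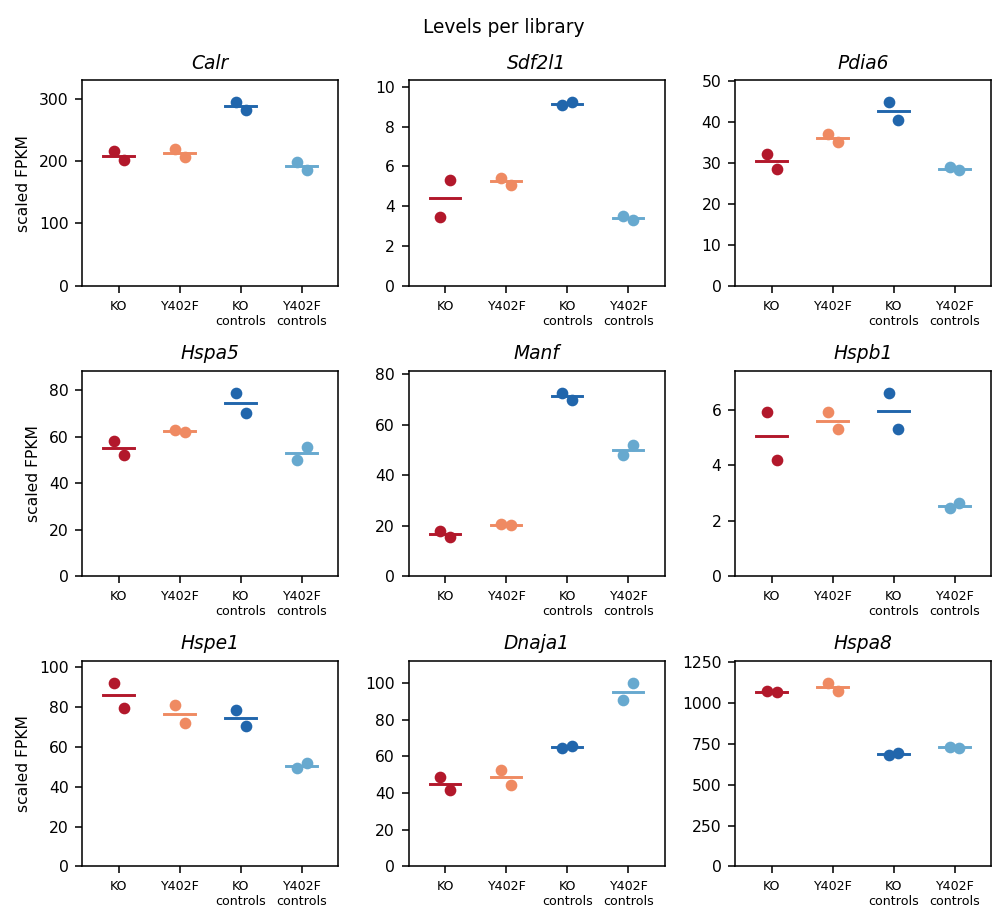
Scaled FPKM of 9 chaperone genes in each library (points) with the group mean (line), every axis from 0. For Calr, Sdf2l1 and Pdia6 the KO controls lie above all other libraries, Dnaja1 is highest in the Y402F controls, and Hspa8 separates the 4 mutant libraries from the 4 controls.

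Against their own controls, 4 chaperone genes rose and 14 fell in KO, of 34 tested, while 16.6% and 21.0% of all genes were called higher and lower by limma. In Y402F 9 rose and 6 fell, beside 13.0% and 19.3% of all genes. The median log2 difference was -0.18 in KO and 0.21 in Y402F, with 0.00 over all genes in each. Calls in the same direction in both mutants were made for 10 genes, which are 55.6% of the KO calls and 66.7% of the Y402F calls, or 29.4% of the genes tested beside 23.2% of all genes. Calls in opposite directions were made for 0 of the 34 and for 0.0925% of all genes. All these values set one kind of table against the other. The summed level of 5 oligodendrocyte markers was 2679 and 3241 scaled FPKM in KO and 4055 and 4171 in KO controls, and 2435 and 2752 in Y402F and 2531 and 2559 in Y402F controls. That of 5 neuron markers was 2513 and 2355 in KO and 1899 and 1948 in KO controls, and 2474 and 2281 in Y402F and 2090 and 2112 in Y402F controls. Mbp and Snap25 were the largest members of these sums, and the lists were mixed. Of the oligodendrocyte markers limma called 0 higher and 2 lower in KO (median 0.03) and 2 higher and 1 lower in Y402F (median 0.31). Of the neuron markers it called 3 higher and 1 lower in KO (median 0.27) and 1 higher and 1 lower in Y402F (median 0.07). The 7 activity-induced genes moved most in KO, where 6 were called higher (median 1.80), with sums of 193 and 260 in KO and 61.9 and 64.6 in KO controls; in Y402F 0 were higher and 1 lower (median -0.09), with sums of 159 and 125 in Y402F and 119 and 124 in Y402F controls. The part of these lists in the chaperone results was not tested, and in these bulk samples fewer cells of a type and less RNA per cell cannot be told apart.

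RNA of the genes for the cytosolic chaperones HSC70 and HSP90 beta was higher in both mutant tables than in those of their controls. Genotype and processing cannot be told apart in these differences. Hspa8 was at 1075 and 1063 scaled FPKM in KO and 682 and 696 in KO controls (0.63, SE 0.06, limma adjusted p = 0.000127). In Y402F it was at 1122 and 1075, against 730 and 725 in Y402F controls (0.59, SE 0.06, limma adjusted p = 0.000195). Hsp90ab1 was at 739 and 780 in KO and 587 and 581 in KO controls (0.38, SE 0.06, limma adjusted p = 0.00250), and at 744 and 753 in Y402F and 591 and 572 in Y402F controls (0.36, SE 0.06, limma adjusted p = 0.00348). Mutant and control libraries did not overlap for either gene, and the differences in KO and Y402F were within 1 SE of each other. Exons of Hspa8 share 2 to 2.09% of their bases with each of the small nucleolar RNA genes Snord14c, Snord14d and Snord14e on the same strand. Dnajb1 (HSP40), which stimulates the ATPase of HSP70, also rose in both: it was at 18.5 and 21.5 in KO and 11.5 and 12.8 in KO controls (0.68, SE 0.15), and at 18.6 and 22.5 in Y402F and 11.6 and 10.6 in Y402F controls (0.83, SE 0.15).

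Other cytosolic genes had calls in both directions. Hsph1 (HSP110), the exchange factor of HSP70, fell in both mutants, with 112 and 99.8 scaled FPKM in KO and 157 and 155 in KO controls (-0.56, SE 0.12), and 121 and 96.2 in Y402F and 158 and 146 in Y402F controls (-0.49, SE 0.12). Dnaja1 fell in both, with 48.5 and 41.7 in KO and 64.5 and 65.8 in KO controls (-0.53, SE 0.12), and 52.7 and 44.5 in Y402F and 90.4 and 100 in Y402F controls (-0.96, SE 0.12). Mutant and control libraries did not overlap for either gene. Hsp90aa1, the stress-responsive HSP90 alpha gene, fell in KO (328 and 250, against 389 and 397 in KO controls; -0.46, SE 0.15, limma adjusted p = 0.0379) and was not called in Y402F (289 and 227, against 311 and 331 in Y402F controls; -0.32, SE 0.15, limma adjusted p = 0.123). Hspb1 rose in Y402F, with 5.90 and 5.30 in Y402F and 2.45 and 2.62 in Y402F controls (0.90, SE 0.20, limma adjusted p = 0.00943), and was not called in KO (5.91 and 4.19, against 6.61 and 5.30 in KO controls; -0.21, SE 0.20). Hspa1a, Hspa1b and Bag3 were called in neither mutant, with log2 differences of 0.01, 0.39 and -0.03 in KO and 0.59, 0.44 and 0.41 in Y402F. Exons of Hspa1a share 19% of their bases with a gene on the opposite strand, and those of Dnaja1 share 7.05% with Smu1 on the opposite strand. The sum of Hspa1a and Hspa1b depends less than either gene alone on how their shared reads were divided. It was 12.1 and 12.5 scaled FPKM in KO and 10.1 and 10 in KO controls, and 14.7 and 13 in Y402F and 9.64 and 8.39 in Y402F controls. Mutant libraries lay above their controls in both lines; the sum was not tested. Hsf1 was not called either, at -0.15 in KO and -0.23 in Y402F (SE 0.14 each).

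Of the 14 ER chaperone genes 1 rose and 8 fell in KO, where 16.6% and 21.0% of all genes did, and 2 rose and 3 fell in Y402F, close to the 13.0% and 19.3% of all genes. Manf had the greatest fall in KO, with 17.8 and 15.7 scaled FPKM in KO and 72.7 and 69.8 in KO controls (-2.03, SE 0.11, limma adjusted p = 5.18e-06). In Y402F it was at 20.5 and 20.2, against 48.0 and 51.8 in Y402F controls (-1.25, SE 0.11, limma adjusted p = 7.16e-05). Exons of Manf share 4.14% of their bases with Dcaf1 and 4.71% with an antisense transcript on the opposite strand, and the tables do not say whether counting used strand. Hsp90b1 also fell in both mutants, with 107 and 80.9 in KO and 195 and 185 in KO controls (-1.02, SE 0.15, limma adjusted p = 0.00140), and 109 and 84.8 in Y402F and 161 and 150 in Y402F controls (-0.68, SE 0.15, limma adjusted p = 0.0109). Its exons share 10.3% of their bases with a pseudogene on the opposite strand. Canx fell in both, with 72.9 and 67.3 in KO and 92.0 and 104 in KO controls (-0.47, SE 0.10), and 74.4 and 65.9 in Y402F and 99.8 and 99.7 in Y402F controls (-0.50, SE 0.10). Dnajb9 (ERdj4), a J-domain cochaperone of BiP, was the ER chaperone gene that rose in both, with 40.3 and 32.1 in KO and 20.2 and 19.5 in KO controls (0.82, SE 0.14, limma adjusted p = 0.00228), and 36.5 and 31.4 in Y402F and 23.7 and 22.4 in Y402F controls (0.54, SE 0.14, limma adjusted p = 0.0186).

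Of the 5 ER chaperone genes that were higher in the KO controls than in the Y402F controls, Manf fell in both mutants as given above, and the other 4 were called in KO and not in Y402F. The same control libraries enter both comparisons, so these calls are not independent of the choice of the 5 genes. Hspa5 fell in KO, with 58.4 and 52.3 scaled FPKM in KO and 79.1 and 70.4 in KO controls (-0.43, SE 0.11, limma adjusted p = 0.0143), and was at 62.9 and 62.3 in Y402F and 50.2 and 55.6 in Y402F controls (0.24, SE 0.11, limma adjusted p = 0.118). Calr fell in KO by -0.47 (SE 0.08, limma adjusted p = 0.00250), with 216 and 201 in KO and 294 and 282 in KO controls, and was at 220 and 207 in Y402F and 198 and 186 in Y402F controls (0.16, SE 0.08, limma adjusted p = 0.170). Sdf2l1 fell in KO, with 3.46 and 5.33 in KO and 9.06 and 9.22 in KO controls (-0.93, SE 0.19, limma adjusted p = 0.00634), and was at 5.44 and 5.09 in Y402F and 3.50 and 3.33 in Y402F controls (0.51, SE 0.19, limma adjusted p = 0.0784). Pdia6 fell in KO by -0.47 (SE 0.11, limma adjusted p = 0.0104), with 0.32 in Y402F (SE 0.11, limma adjusted p = 0.0516). Calr lay between 201 and 220 in all 4 mutant libraries and between 186 and 294 in the 4 controls. Both KO libraries below both KO controls and both Y402F libraries above both Y402F controls were found for 6 of the 34 genes (these 4, Creld2 and Xbp1), beside 2.03% of all genes, and the reverse for 0, beside 1.68%. Dnajb11, another cochaperone of BiP, fell in KO (-0.57, SE 0.19, limma adjusted p = 0.0460; -0.13, SE 0.19 in Y402F, not called), and Pdia3 (ERp57), which works with calreticulin on glycoproteins, rose in Y402F (0.32, SE 0.10, limma adjusted p = 0.0456).

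Of the 3 stress regulators tested 1 fell in KO and 1 rose in Y402F. Of the 4 degradation genes 2 fell in KO, and 1 rose and 1 fell in Y402F. With 16.6% and 21.0% of all genes called higher and lower in KO and 13.0% and 19.3% in Y402F, groups this small cannot be set apart from the rest. Ddit3 fell in KO, with 14.0 and 16.3 scaled FPKM in KO and 27.7 and 26.0 in KO controls (-0.79, SE 0.23, limma adjusted p = 0.0248), and was at 10.8 and 18.4 in Y402F and 18.8 and 15.1 in Y402F controls (-0.24, SE 0.23). Atf4, the translation-controlled regulator upstream of it, rose in Y402F, with 99.7 and 90.7 in Y402F and 71.2 and 70.7 in Y402F controls (0.42, SE 0.13, limma adjusted p = 0.0424), and was not called in KO (76.1 and 101, against 80.7 and 76.9 in KO controls). Xbp1 was at 24.0 and 30.8 in KO and 40.3 and 36.3 in KO controls (-0.48, SE 0.17, limma adjusted p = 0.0562). Edem1 fell in both mutants, with 3.68 and 2.73 in KO and 6.76 and 11.0 in KO controls (-1.21, SE 0.26), and 3.37 and 2.84 in Y402F and 16.1 and 11.3 in Y402F controls (-1.83, SE 0.26); the upper Cufflinks bound of its control values was 38.7 to 60.3% above the estimate. Herpud1, a membrane component of the degradation complex, fell in KO (-0.49, SE 0.15, limma adjusted p = 0.0317), and Sel1l, the adaptor of the ubiquitin ligase encoded by Syvn1, rose in Y402F (0.37, SE 0.12, limma adjusted p = 0.0460). Syvn1 was called in neither (0.36 in KO, 0.12 in Y402F). Hspe1 rose in Y402F, with 80.9 and 72.1 in Y402F and 49.2 and 51.9 in Y402F controls (0.59, SE 0.11, limma adjusted p = 0.00494), and Hspd1 was called in neither mutant. Exons of Hspe1 share 7.6% of their bases with Hspd1 on the opposite strand.

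**Figure D5:**
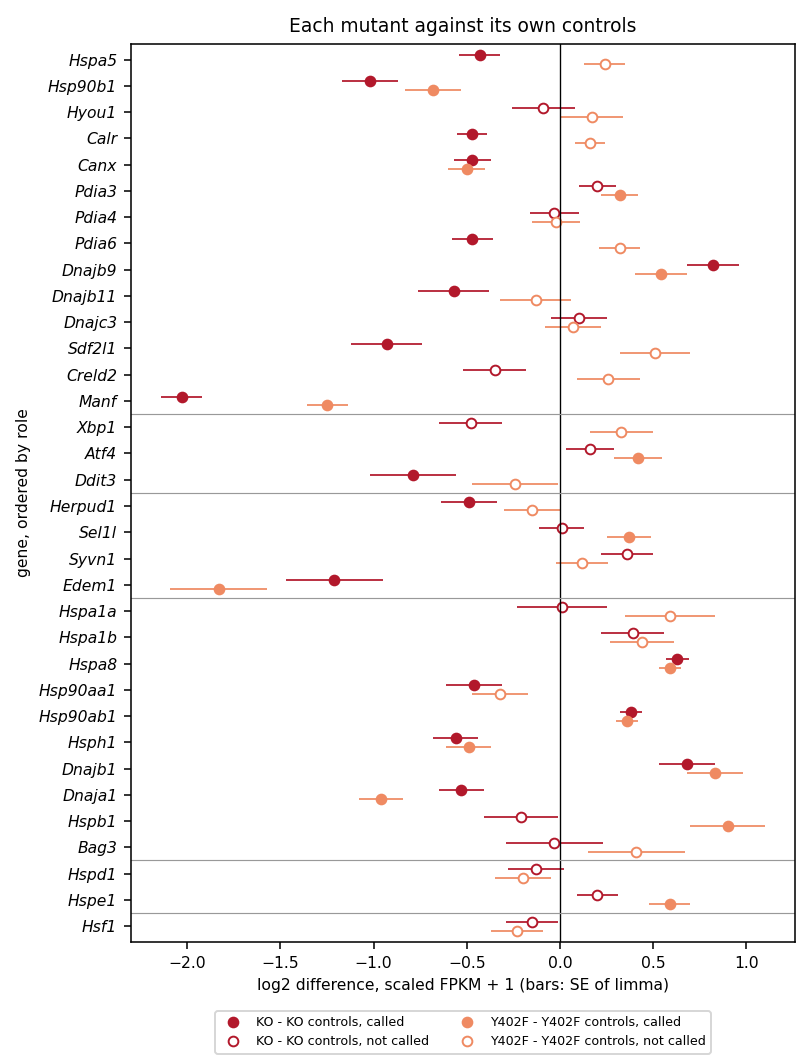
Log2 difference of KO minus KO controls (dark) and of Y402F minus Y402F controls (light) for the 34 genes tested, with SE bars from limma; filled points were called. Manf, Edem1 and Hsp90b1 lie left of 0 in both, Hspa8, Hsp90ab1, Dnajb1 and Dnajb9 right of 0 in both, and Hspa5, Calr, Pdia6, Sdf2l1, Creld2 and Xbp1 on opposite sides.

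The difference of these effects (KO minus its controls, less Y402F minus its controls) tests whether the mutant effects differ, and a processing difference common to both lines cancels in it. Limma called 0 of 34 chaperone genes, beside 0.0308% of all genes, while 10 of the 34 had an unadjusted p under 0.05, beside 13.0% of all genes. The median was -0.26, with 0.02 over all genes, and 24 of the 34 were negative, beside 48.3% of all genes. The smallest p-values belonged to Calr (-0.62, SE 0.11), Sdf2l1 (-1.44, SE 0.27), Pdia6 (-0.80, SE 0.15) and Manf (-0.77, SE 0.15), with limma adjusted p-values of 0.136 for the first 3 and 0.137 for Manf. These genes also differed between the wild-type pairs; the control libraries enter both values, which are not independent. Hspa8 and Hsp90ab1 were at 0.04 and 0.01 (SE 0.09 each). The 7 activity-induced genes had a median of 1.57 in the same contrast, 6 of them with an unadjusted p under 0.05 and 0 called by limma; their part in the chaperone values was not tested.

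Of 120 other genes of these pathways, in 8 lists, 117 passed the filter. Between KO and Y402F edgeR called 0 of them, and 0 had an unadjusted p under 0.05. Between the wild-type pairs 8 were higher and 2 lower in KO controls, with a median log2 difference of 0.07, beside 4.86% and 3.19% of all genes and a median of -0.02; these shares are near the background. Those named by the rule include Cct7, a subunit of the cytosolic chaperonin TRiC (205 and 176 scaled FPKM in KO controls, 96.8 and 100 in Y402F controls; 0.94, SE 0.10, limma adjusted p = 0.0110). The alpha-crystallin gene Cryab was at 183 and 178 in KO controls and 104 and 104 in Y402F controls (0.79, SE 0.11, limma adjusted p = 0.0117). Ppib, the ER cyclophilin gene, was at 85.1 and 81.7 in KO controls and 63.3 and 57.8 in Y402F controls (0.46, SE 0.10, limma adjusted p = 0.0385). Lower were Ssr3, a subunit of the translocon-associated complex (-0.45), and Erlec1, an ER lectin gene (-0.49).

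Against their own controls 13 of the 117 rose and 35 fell in KO, beside 16.6% and 21.0% of all genes, and 13 rose and 18 fell in Y402F, beside 13.0% and 19.3%. The counts lay near or below those shares, other than the 35 that fell in KO. Of the 13 TRiC and prefoldin genes 0 rose and 7 fell in KO and 0 rose and 5 fell in Y402F, where 21.0% and 19.3% of all genes fell. Pfdn5 was at 209 and 210 scaled FPKM in KO and 601 and 590 in KO controls (-1.50, SE 0.10) and at 183 and 223 in Y402F and 397 and 438 in Y402F controls (-1.04, SE 0.10). Vcp, the ATPase that extracts ER proteins for degradation, rose in both, with 67.6 and 72.4 in KO and 32.1 and 32.1 in KO controls (1.10, SE 0.09) and 72.8 and 73.2 in Y402F and 33.4 and 34.0 in Y402F controls (1.09, SE 0.09). Mesd, a chaperone gene for LDL receptor relatives, fell in both (-1.90 in KO and -1.68 in Y402F, SE 0.13 each). The sensor gene Atf6 rose in both, with 16.5 and 15.9 in KO and 9.52 and 9.86 in KO controls (0.68, SE 0.13) and 19.1 and 16.4 in Y402F and 12.8 and 13.3 in Y402F controls (0.41, SE 0.13). Hspa9, the mitochondrial HSP70 gene mortalin, rose in both too (0.45 in KO and 0.38 in Y402F, SE 0.08 each). Adjusted p-values by limma for Pfdn5, Vcp, Mesd, Atf6 and Hspa9 lay between 1.88e-05 and 0.0384.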

How the data were processed

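Per the labels' protocols, RNA was taken up in Trizol and total RNA went into the libraries. The submitters' processing notes name Bowtie 1, HISAT and mm9, and for the controls Cufflinks as well, with no role or order. The authors deposited, for mutants, expected counts and FPKM per Entrez gene with a length and, for controls, FPKM with confidence bounds per Ensembl gene. The program behind the expected counts is unknown here. Control gene positions lie on GRCm38: 99.8% share a start or end with GENCODE M21.

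Mutant genes were matched by symbol (17647) or Entrez table (60), and FPKM were divided by median-of-ratios factors; unscaled, the median log2 difference of each mutant from its controls was -0.12. The 12974 genes averaging 1 FPKM or more were tested with limma 3.58.1 (trend on mean intensity; log2(scaled FPKM + 1), which understates changes of low genes; all 8 libraries in 4 groups). KO against Y402F used edgeR 4.0.16 (quasi-likelihood, TMM; SE from the F statistic) on rounded expected counts of 12970 genes, with DESeq2 1.42.0 as an alternative, in R 4.3.3. P-values were adjusted by Benjamini-Hochberg over all genes, and calls were made at 0.05. The fits were tested on simulated data. Named genes are the chaperone genes called, or the 4 with the smallest p where fewer than 4 were, others as context, and up to 2 called genes per pathway list and comparison. The members, lists and alternatives were chosen with earlier results of these data known.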

Additional observations from a re-analysis of the deposited data

Results flagged for a closer look

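For 6 genes both KO libraries lay below both KO controls while both Y402F libraries lay above both Y402F controls, although limma did not call the difference of the effects for any of them. Of the 34 genes tested these are 17.6%, and the same arrangement was found in 2.03% of all genes; 0 of the 34 had the reverse arrangement, beside 1.68% of all genes. The differences of the effects on the log2 scale were -1.44 for Sdf2l1, -0.80 for Pdia6, -0.80 for Xbp1, -0.67 for Hspa5, -0.62 for Calr and -0.61 for Creld2, with limma adjusted p-values of 0.136, 0.136, 0.243, 0.156, 0.136 and 0.329 in that order. Creld2, an ER stress-induced folding factor gene, was at 4.98 and 6.31 scaled FPKM in KO and 7.28 and 7.63 in KO controls, and at 6.72 and 7.13 in Y402F and 5.21 and 6.08 in Y402F controls. Direct comparison of the mutants gave log2 differences of -0.26, -0.25, -0.15, -0.18, -0.04 and -0.30 for the 6 genes by edgeR in the order above, with an adjusted p of 1.00 each, and the wild-type pairs 1.20, 0.56, 0.66, 0.49, 0.58 and 0.35 by limma. The control libraries enter the arrangement, the difference of the effects and the wild-type values, which are therefore not independent.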

How the results depend on the processing

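No called chaperone gene changed direction in any alternative. In the wild-type pairs, the 8 calls became 5 with no filter, 4 with quantile normalization, 1 without the trend, 5 with a term for sex and 2 with only the 4 libraries compared, and none of the 8 genes kept its call in all alternatives. Leaving out 1 library gave 0 to 8 calls there, 8 to 19 in KO against its controls (8 without KO replicate 2, against 18) and 9 to 14 in Y402F against its controls (9 without Y402F control replicate 1, 10 without Y402F replicate 1, against 15); KO against Y402F and the difference of effects stayed at 0. A lone library is then assumed to vary like the other groups. In KO 6 of 18 calls (Hsp90b1, Dnajb9, Sdf2l1, Manf, Hspa8 and Hsp90ab1) and in Y402F 8 of 15 (Canx, Manf, Edem1, Hspa8, Hsp90ab1, Dnajb1, Dnaja1 and Hspe1) held in every alternative. With a replicate block the counts were 9, 19, 14, 0 and 0; the numbers share only a label, with deviations correlated at 0.204 between KO and Y402F, where the block also separates the sex patterns, and at -0.0309 to 0.0489 elsewhere. The cause of the moved counts was not tested. Depth of the controls is unknown, and genes at the level of Trib3 cannot be compared.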
